A study of Homo sapiens with 2 samples.

Results

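Cells from different populations that were caught in the same droplet are usually discarded from single-cell data, but in a hashed pool they give 2 separately labelled measurements of 1 droplet. In this single-cell RNA sequencing pool, 1391 of the 15324 droplet barcodes carried 2 clearly labelled cells, a share of 9.08% (exact binomial 95% interval 8.63% to 9.54%). These droplets were selected on their hashtag counts: the second highest of 8 hashtags had at least 100 UMIs (unique molecular identifiers, by which PCR copies of a molecule are counted once) and the third had fewer than 100. The question was whether the levels of the 2 hashtags rose together within a droplet, as a factor acting on the whole droplet would make them do, or varied independently, as staining from cell to cell would.

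The pool held 8 untreated populations of PC9, a line of human lung cancer cells of the non-small cell type with a deletion in EGFR exon 19, at 8 to 10 passages. PC9-VU and PC9-MGH are versions kept at different institutions. PC9-BR1 descends from PC9-VU cells kept under rising doses of the EGFR inhibitor afatinib and alone carries EGFR T790M. DS3, DS6, DS7, DS8 and DS9 are sublines, each grown from 1 cell of PC9-VU after nuclear labeling, so each stands for 1 founding cell. For DS8 the paper describes an apparent polyclonality in drug response. Every population received 1 ng of its own hashing antibody before pooling. No source used here ties a hashtag to a population, and the whole pool is 1 library without replicates, so all values are descriptions of that library and carry no p-value.

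In cell hashing, an antibody against widely expressed surface proteins carries a short DNA tag with a poly-A end, which is captured in the droplet beside the mRNA and receives the same droplet barcode. The amount of tag on a cell depends on how much antibody the cell bound, which varies with its surface area and protein, and on how much of the tag is captured and amplified. Free antibody and shed tags in the suspension add a low level of every hashtag to every droplet. Droplet loading is a random process, so a heavily loaded run contains droplets with more than 1 cell, and hashing was devised to recognise these when the cells come from different populations.

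The 8 tags that were read are shown because each level below rests on telling them apart. They are synthetic, lie at no position in the genome, and are printed 5′ to 3′ with every base in capitals, since the whole tag identifies the hashtag.
HTO_A: GTCAACTCTTTAGCG
HTO_B: TGATGGCCTATTGGG
HTO_C: TTCCGCCTCTCTTTG
HTO_D: AGTAAGTTCAGCGTA
HTO_E: AAGTATCGTTTCGCA
HTO_F: GGTTGCCAGATGTCA
HTO_G: TGTCTTTCCTGCCAG
HTO_H: CTCCTCTGCAATTAC
Each tag has 15 bases, of which 6 to 8 are G or C. The closest of the 28 pairs, HTO_C and HTO_H, differ at 8 bases, and the most distant differ at 14.

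All 28 combinations of hashtags occurred among the 1391 droplets, with 17 droplets for HTO_B with HTO_H at the low end and 91 for HTO_C with HTO_E at the high end. HTO_E was one of the labels in 455 droplets (32.7%) and HTO_C in 442 (31.8%). HTO_D and HTO_F were each found in 355, HTO_G in 338, HTO_B in 329 and HTO_A in 312, and HTO_H was the least frequent with 196 (14.1%). The top hashtag had a median of 1569 UMIs (25th to 75th percentile 1196 to 1928) and the second a median of 778 UMIs (370 to 1210.5). The third hashtag, which the rule kept below 100, had a median of 33 UMIs (28 to 40). The typical droplet chosen thus held a pair of hashtags far above all the others, a gap that the rule itself requires in part. In HTO_C with HTO_E, the droplet whose total was nearest to the median of that pair had 1263 UMIs of HTO_C, 1259 of HTO_E and 113 of the other 6 hashtags together.

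The label of 2 clear cells was less plain for some of these droplets. In 387 of the 1391 (27.8%, exact binomial 95% interval 25.5% to 30.3%), the top hashtag had at least 3 times the UMIs of the next, so that the same barcode also met the definition of a single-hashtag cell used below. Their second hashtag had a median of 249 UMIs (149 to 396). HTO_B, the hashtag with the lowest median reads on single cells, was the second one in 180 of these 387, or 46.5% (41.5% to 51.6%). It was second in 290 of all 1391 (20.8%). Close to the limits there were 26 droplets inside with 100 to 109 UMIs of the second hashtag and 45 barcodes outside with 90 to 99, and in 22 of those 45 the second hashtag was HTO_D. At the upper limit, for the third hashtag, 11 droplets lay inside with 90 to 99 UMIs and 3 barcodes outside with 100 to 109. In all, 90 barcodes had 3 or more hashtags with at least 100 UMIs (0.587%) and were left out by the rule.

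The hashtag total of these droplets was close to that of 2 singly labelled cells, a value that the rule fixes in part. The total over the 8 hashtags had a median of 2467 UMIs (25th to 75th percentile 1824.5 to 3192), from a lowest value of 270 to a highest of 7532. In the 14011 single-hashtag cells, in which the top hashtag had at least 3 times the UMIs of the next, the median was 1338 UMIs (820 to 1786). The ratio of these medians was 1.84 in UMIs and 2.22 in reads, which include PCR copies. The reads of the 2 hashtags together came to a median of 1.09 times the sum of their single-hashtag medians (0.692 to 1.69). The rule asks for at least 100 UMIs of a second hashtag, so a higher total is partly built in. The single-hashtag cells also include 387 of the droplets. The highest total came from a droplet of HTO_C with HTO_F that had 6676 UMIs of HTO_F. Some labels, this one among them, had far more UMIs than other labels with similar reads. In a droplet of HTO_A with HTO_C, the top hashtag had more than 3 times the UMIs of the next but less than 3 times its reads. The cause was not tested.

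The hashtags had levels close to those on single cells. For this, reads were divided by the median reads of the single-hashtag cells of the same hashtag, which ran from 617 reads for HTO_B to 5638.5 for HTO_G. Over the 2782 levels in the 1391 droplets, the median relative level was 1.00 (exact order-statistic 95% interval 0.962 to 1.04). By hashtag, the lowest medians were 0.895 for HTO_D (interval 0.750 to 1.01) and 0.897 for HTO_C (0.829 to 0.9901), and the highest were 1.11 for HTO_H (0.968 to 1.27) and 1.08 for HTO_G (0.986 to 1.16). HTO_B was at 0.961, HTO_F at 1.00, HTO_A at 1.03 and HTO_E at 1.04. The interval excluded 1 for HTO_C alone. Relative to stricter single-hashtag cells, with the top at least 10 times the next, the median over all levels was 0.919. These intervals cover counting error only. The rule set a floor in UMIs, and relative levels in reads reached below it, down to 0.0233. In UMIs, 100 is 0.296 times the single-cell median of HTO_B and 0.139 times that of HTO_H. For the other 6 hashtags it is 0.0643 to 0.0838 times their median UMIs. Their definition sets single-hashtag cells no such floor, but the lowest of them had 108 UMIs of its hashtag.

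**Figure D1:**
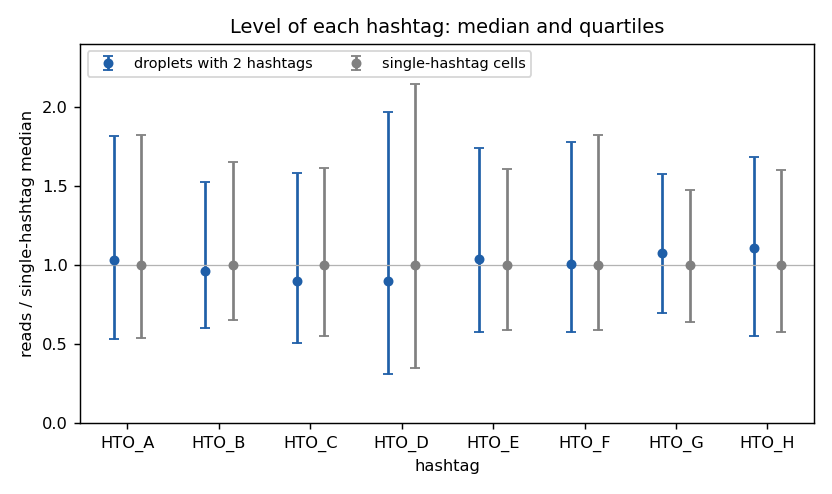
Level of each hashtag in reads, relative to the median of its single-hashtag cells, for droplets with 2 hashtags (blue) and single-hashtag cells (grey, median 1 by definition); points are medians and bars run from the 25th to the 75th percentile over cells of 1 library. The blue medians lie between 0.895 and 1.11, and HTO_D has the longest bar in both sets.

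The most and the least variable hashtag were the same on single cells and in these droplets, but most spreads were wider in the droplets. HTO_D was the most variable on single cells, with a standard deviation of 1.70 on the log2 scale, and was again the most variable in droplets with 2 hashtags, with 1.81. HTO_B was the least variable in both, with 0.97 and 1.09, where the higher floor of HTO_B also cuts its low side. HTO_G had nearly the same value in both sets, with 1.26 on single cells and 1.24 in the droplets. For the other 5 hashtags the standard deviation was higher in the droplets, with the smallest step for HTO_A (1.40 and 1.43) and the largest for HTO_F (1.35 and 1.499).

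Very low levels occurred in both sets. HTO_D had the highest share of levels below 0.125 times the single-hashtag median, with 34 of 355 in the droplets (9.58%, exact binomial 95% interval 6.72% to 13.1%) and 134 of 1939 on single cells (6.91%, 5.82% to 8.13%). HTO_G had 4.14% in the droplets (2.28% to 6.85%) and 5.01% on single cells (4.02% to 6.16%). HTO_C had 6.33% (4.25% to 9.03%) and 3.95% (3.21% to 4.79%). The intervals of both sets overlapped for each of these 3 hashtags. They did not for HTO_H, with 5 of 196 (2.55%, 0.833% to 5.85%) against 0 of 926 (0% to 0.398%). Nor did they over all 8 hashtags together, with 4.74% in the droplets (3.98% to 5.60%) and 3.45% on single cells (3.15% to 3.76%). The sets were chosen by different limits on the low side, 100 UMIs in the droplets and a ratio of at least 3 to the next hashtag on single cells, so a difference between them could not be read apart from the limits. HTO_B could not reach so low a level in the droplets. Its limit of 100 UMIs means at least 100 reads, against a single-hashtag median of 617 reads.

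The levels of the 2 hashtags varied almost independently of each other. With the hashtags ordered by name and each level taken relative to the median of its hashtag pair, Spearman's rho over the 1391 droplets was 0.066 and Pearson's r was 0.084 on the log2 scale. In UMIs, rho was 0.096. The droplets share 1 library and its sequencing depth, so rho is a description of this library. Ordering by name was needed because sorting the 2 hashtags by level would make them correlate by itself. After the other 6 hashtags were taken out of both levels by a straight line, rho was 0.042.

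**Figure D2:**
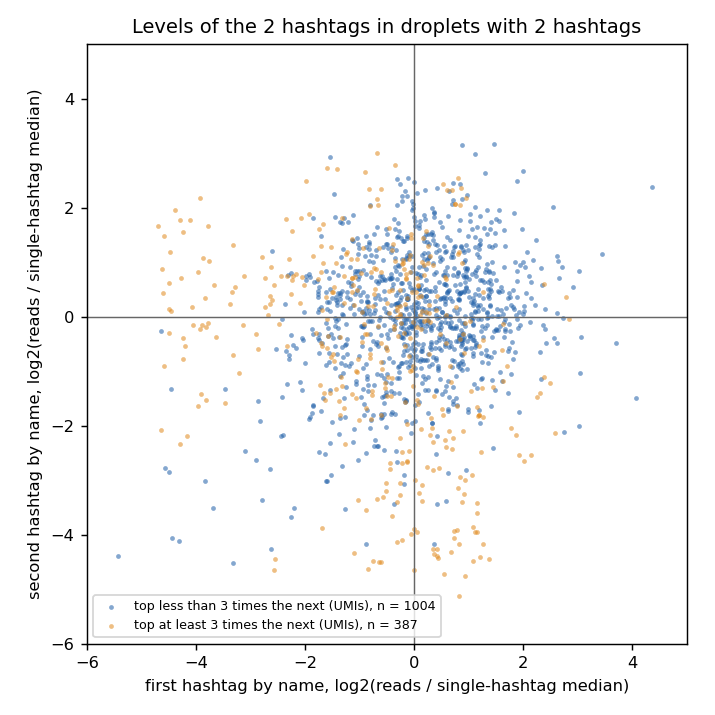
Each point is 1 of 1391 droplets, with the reads of its 2 hashtags over their single-hashtag medians on log2 axes, hashtags ordered by name. The cloud is centred on 0 on both axes with rho 0.066; of the 387 droplets whose top hashtag had at least 3 times the UMIs of the next (orange), 101 lie in the arms where a hashtag is below 0.125 times its median (126 droplets in all) and 286 lie elsewhere.

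The side of the median gave the same picture in counts. Both hashtags lay above their single-hashtag median in 353 droplets and both lay at or below it in 354, so 707 of 1391 droplets had both on the same side, or 50.8% (exact binomial 95% interval 48.2% to 53.5%). If the 2 sides were independent within each hashtag pair, 690.9 droplets would be expected (49.7%), which lies inside that interval. Both levels were above 2 times the median in 46 droplets, where independence gives 44.5. Both were below 0.5 times the median in 82 droplets, where independence gives 69.5 (observed 5.90%, interval 4.72% to 7.26%, expected 5.00%).

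The sum and the difference of 2 independent levels have equal spread, and this comparison left a small shared part. On the log2 scale the sum of the 2 levels had a standard deviation of 2.04 and the difference 1.87, a ratio of 1.09. The covariance amounted to 8.43% of the mean variance of the 2 levels. From the single-hashtag cells alone, independent levels would give 1.85 for either. Most hashtags had a narrower spread there, under another limit on the low side, so 1.85 is no like standard for the droplets. Within pairs, the levels in the droplets had standard deviations of 1.37 for the first hashtag by name and 1.40 for the other. Within a droplet the higher relative level was a median of 2.32 times the lower (25th to 75th percentile 1.48 to 4.05), and in the most uneven droplet 82.6 times.

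How strongly one label was stained hardly changed what was seen of its partner. Each hashtag level was placed in 1 of the 4 quartile groups of its own single-hashtag cells, and the partner in the same droplet was read. In the lowest quartile group (726 levels) the partner had a median of 0.912 times its single-hashtag median (25th to 75th percentile 0.478 to 1.62). In the next groups it had 1.03 and 1.01, and in the highest group (718 levels) 1.02 (0.601 to 1.75). The partner was thus lower only beside the weakest group, and by much less than the distance between its own quartiles. Each droplet enters this comparison 2 times, once for each hashtag.

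**Figure D3:**
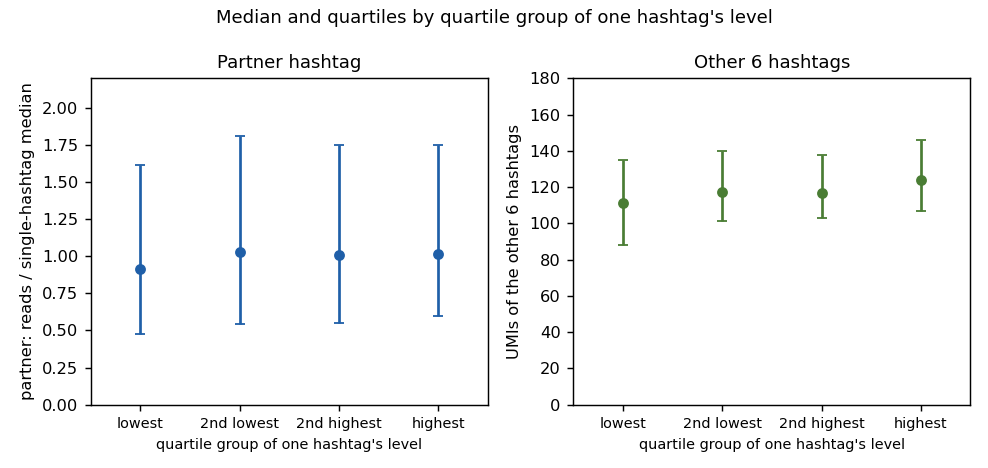
Left, reads of the partner hashtag over its single-hashtag median; right, UMIs of the other 6 hashtags; both by the quartile group of single-hashtag levels in which one hashtag of the droplet lay (points are medians, bars the 25th to 75th percentile, 666 to 726 levels per group). Partner medians run from 0.912 to 1.03, and those of the other 6 hashtags from 111 UMIs in the lowest group to 124 in the highest.

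The choice of droplets decided this result where it compared the 2 hashtags with each other. When the 387 droplets with a top hashtag of at least 3 times the next were left out, rho rose to 0.268 over the remaining 1004, and the partner beside the lowest group fell to a median of 0.792. This filter keeps droplets because their 2 UMI counts are within a factor of 3, so it selects on similarity, which by itself favours a correlation. How much of the rho of 0.268 comes from this was not tested. The 387 droplets left out also met the rule for single-hashtag cells, and their part in the lower rho was not tested. A filter that judged each hashtag by itself, with both levels at 0.25 times the median or more, gave a rho of 0.054 over 1155 droplets. With a minimum of 200 UMIs for the second hashtag it was 0.072 over 1209 droplets.

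Lowering the minimum to 50 UMIs turned the sign, to a rho of -0.077 over 2709 barcodes. The 1318 barcodes that this added had a median of 59 UMIs of the second hashtag and 45 of the third. In 86.0% of them the top hashtag had at least 3 times the next, and HTO_D was second in 60.2%. HTO_D also had the highest background of the 8 hashtags, given below. These barcodes therefore have a second hashtag near the next one, where the 1391 had medians of 778 and 33 UMIs. The limits that chose each set fix part of this difference.

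Among the 28 hashtag pairs, rho was above 0 in 18, below 0 in 9 and 0 in 1 (HTO_F with HTO_H), with a median of 0.071. In 12 pairs it lay within 0.1 of 0. Of the 24 pairs with at least 30 droplets, HTO_C with HTO_D had the highest value, 0.29 over 76 droplets, and 60.5% of its droplets had both hashtags on the same side (exact binomial 95% interval 48.6% to 71.6%). HTO_B with HTO_G followed with 0.28 over 42 droplets (59.5%, 43.3% to 74.4%). The lowest values were -0.20 for HTO_B with HTO_D over 49 droplets (38.8%, 25.2% to 53.8%) and -0.12 for HTO_E with HTO_F over 64 droplets (43.75%, 31.4% to 56.7%). The interval of the same-side share included 50% in each of the 28 pairs. The pairs share hashtags and a library, so they are not independent of each other.

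The raw counts show what these pairs look like. In HTO_C with HTO_D, the medians were 1220.5 UMIs of HTO_C and 1321 of HTO_D, and the droplet with the total nearest to the median had 1171 and 1197. In HTO_B with HTO_G, the medians were 332 UMIs of HTO_B and 1568 of HTO_G, and the corresponding droplet had 391 and 1554. On single cells HTO_B had a median of 338 UMIs. Beside HTO_C, HTO_D and HTO_F its medians were 428, 396 and 312 UMIs, so that it was the weaker label beside each of these partners. In HTO_E with HTO_F, the corresponding droplet had 1699 UMIs of HTO_E and 656 of HTO_F, although the pair medians were 1149 and 1242.5.

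**Figure D4:**
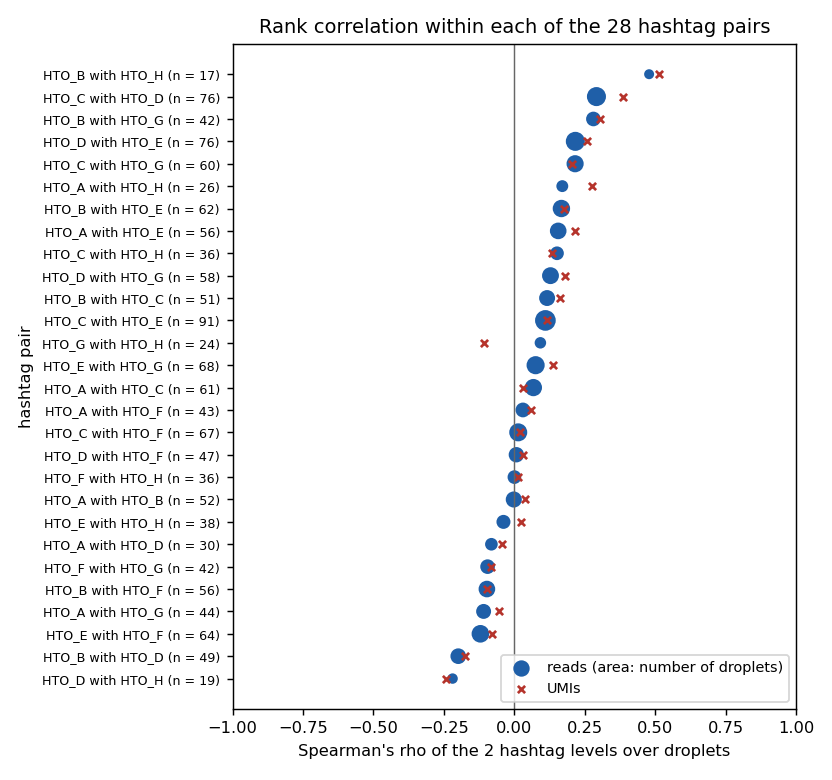
Spearman's rho between the 2 hashtag levels over the droplets of each of the 28 hashtag pairs, sorted, from reads (circles, area in proportion to the 17 to 91 droplets) and from UMIs (crosses). The values from reads scatter around 0 from -0.22 to 0.48, both extremes coming from pairs with fewer than 30 droplets.

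The level of a hashtag also differed with the partner, over small groups. HTO_D had the widest range, from a median of 0.430 times its single-hashtag median beside HTO_H (19 droplets) to 1.17 beside HTO_F (47 droplets). HTO_C had the narrowest, from 0.769 beside HTO_A to 0.973 beside HTO_E, and was below 1 with each of its 7 partners. HTO_A ranged from 0.834 beside HTO_B to 1.28 beside HTO_C, and HTO_G from 0.869 beside HTO_C to 1.27 beside HTO_D. No partner gave the highest or the lowest value for all of the others.

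Hashtags that were not a label of the droplet were also compared within it. The other 6 hashtags had a median of 118 UMIs together (25th to 75th percentile 101 to 140), or 4.83% of the hashtag UMIs of a droplet. Their levels rose together. When the 6 were taken in alphabetical order and split into alternate sets of 3, rho between the sums of both sets was 0.645. Over the same 1391 droplets the 2 labels gave 0.096 in UMIs. That value compares 1 hashtag with 1 other and not sums of 3, so the 2 values are not like measures. The mean level of the 2 labels correlated with these 6 hashtags at a rho of 0.210, with 0.099 for the first label by name and 0.228 for the other. This value depended on the limit and was -0.234 when the second hashtag needed at least 50 UMIs. In the 13624 single-hashtag cells that were not among the droplets rho between the own hashtag and the other 7 was 0.288. The rule caps each of the 6 below 100 UMIs, and the part of capture, depth or free antibody in these values was not tested.

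Hashtags that neither cell carried were little higher in these droplets than beside a single label. HTO_D had the highest background, with a mean of 35.0 UMIs in the droplets in which it was not a label and 30.7 in single-hashtag cells of other hashtags, a ratio of 1.14. HTO_H had the lowest, with 9.84 and 8.60 UMIs and a ratio of 1.14. The largest ratio was 1.19, for HTO_G (15.9 and 13.4 UMIs). All 8 ratios lay between 1.14 and 1.19, compared with 1.84 for the total UMIs. The single-hashtag cells used here leave out those that are also among the 1391 droplets.

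**Figure D5:**
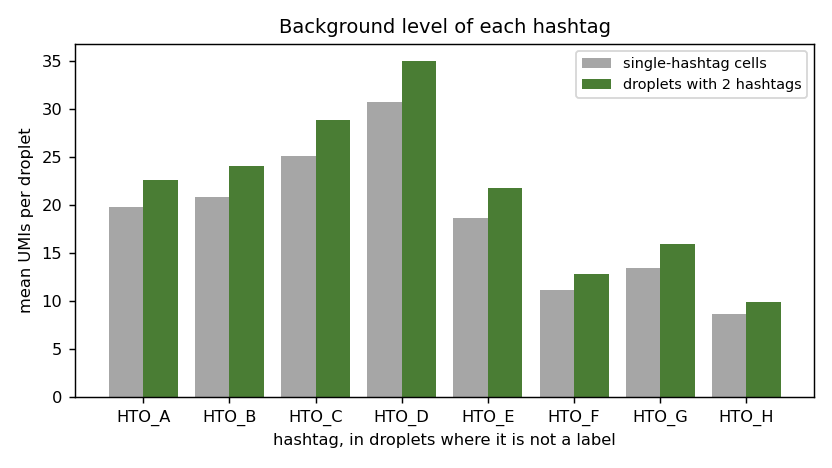
Mean UMIs per droplet of each hashtag where it was not a label, in single-hashtag cells (grey) and in droplets with 2 hashtags (green), over cells of 1 library. The green bars are 1.14 to 1.19 times the grey ones for all 8 hashtags, in the same order from HTO_D to HTO_H.

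For most labels the number of reads per UMI followed the hashtag's own reads, and its correlation with that of the partner was weak. It had a median of 2.66 for the 2 labels (25th to 75th percentile 1.95 to 3.83) and of 1.64 for the other 6 hashtags of the same droplets. Relative to single-hashtag cells of the same hashtag with similar reads, the labels had a median of 0.997 times the expected value (0.973 to 1.02). These residuals correlated weakly between the 2 hashtags of a droplet, with a rho of 0.132, while Pearson's r of the same log2 residuals was 0.0024. Without this adjustment rho was 0.0031. Some labels had far fewer reads per UMI than other labels with similar reads. Their part in the gap between rho and Pearson's r of the residuals was not tested.

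Barcodes that differ at 1 base give a further look at these droplets. In 20 of the 129 such pairs, the barcode with more reads was one of the 1391 droplets, and in all 20 the smaller barcode had the same top 2 hashtags. In 6 pairs both barcodes were among the 1391, with the same 2 hashtags in each. Whether the barcodes of such a pair are copies from the same droplet was not tested, and the 1391 include both. The smaller barcodes of these 6 pairs had 270 to 1955 hashtag UMIs, and in 2 of them both hashtags lay below 0.125 times their median, out of 6 such droplets in all. Without them, rho between the 2 labels was 0.057 over 1385 droplets.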

How the data were processed

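Members of the PC9 family were hashed, pooled and encapsulated in 1 run, loaded for about 20000 cells of which about 15400 were obtained. The authors counted hashtag sequences per droplet barcode with CITE-seq-Count (version and UMI merging not given in the sources used here) and deposited raw counts of reads (filed under the mRNA library) and of UMIs, without normalization. Both matrices hold 8 hashtags and an unmapped row over the same 15324 barcodes, with 81061884 hashtag reads and 22104678 hashtag UMIs in all. Gene expression was not analysed here.

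Droplets were chosen on UMI counts, and the droplets, the hashtags and the comparisons were picked with earlier results of these data known. Levels were log2 ratios of reads to the median of single-hashtag cells (top at least 3 times the next), with no pseudocount. A pseudocount of 1 UMI or read was used for background sums in single cells and for the split of the 6 other hashtags. Expected reads per UMI came from medians in 20 bins of single-hashtag cells. Shares have exact binomial (Clopper-Pearson) intervals and medians exact order-statistic intervals at 95%, for counting error only, and reads without collapsing are not independent molecules. No barcode was removed and no gene-based doublet caller was run. All 8 hashtags are given, and of the 28 pairs the 2 highest and 2 lowest by rho among those with at least 30 droplets. The code was tested on simulated data with and without a shared component, with a tolerance wider than the rho of 0.066 between the labels. That test cannot tell so small a value from none. Python 3.11.15, numpy 2.4.6, pandas 2.3.3, scipy 1.17.1 and matplotlib 3.10.9 were used. Alternatives changed the kind of count, the limits, the reference cells and the hashtags included.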

Additional observations from a re-analysis of the deposited data

Results flagged for a closer look

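Sequences that matched none of the 8 hashtags belong to no comparison above and were present in these droplets at a median of 3.61% of all UMIs (25th to 75th percentile 3.04% to 4.33%), which drew attention because the signal is well above 0 in a row that no comparison used. In single-hashtag cells that are not among the droplets the median was 3.68% (2.96% to 4.67%). In UMIs the medians were 87 and 44. No barcode is marked as free of cells in the sources used here, so no control level is given, and the source of these sequences was not tested.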

How the results depend on the processing

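Each of the 8 results was computed again under 17 to 19 alternatives, and those that moved by more than 0.1 (a correlation or the ratio of spreads), by more than 1.5 times (a count) or out of the 95% interval (a share or a median) are given. Other reference cells cannot change a value that is taken relative to its pair, nor can the kind of count change the number of droplets, so these bear on no such result. The limit of 0.1 is wider than the rho of 0.066 itself. Reference cells without the droplets themselves, a minimum level of 0.25 for both hashtags, and the droplets of each hashtag other than HTO_B left out in turn were chosen after seeing the data. With a second hashtag of at least 50 UMIs there were 2709 barcodes, rho between the labels was -0.077, the ratio of spreads 0.917, the median relative level 0.6895 and rho with the other 6 hashtags -0.234; the 1318 barcodes added had medians of 59 UMIs for the second hashtag and 45 for the third. With the top less than 3 times the next, rho was 0.268 and above 0 in 27 of 28 pairs, the ratio of spreads 1.498, the same-side share 54.2% and the median level 1.07, and the filter selects on the similarity of the 2 counts. The median level was also 1.07 at 200 UMIs and 1.09 with both levels at least 0.25, which cut low levels by construction, and 0.919 against reference cells with the top at least 10 times the next, where the cause was not tested. Pearson's r between the residuals of reads per UMI was 0.0024, and the cause was not tested. Without HTO_C, 11 of 21 pairs had a rho above 0, and rho over all droplets was 0.025; without each of the other 7 hashtags in turn it was 0.052 to 0.101, highest without HTO_F. No paired analysis was possible because the labels give no replicate numbers and all values come from 1 library. Single pairs have 17 to 91 droplets, which leaves wide intervals, and sequencing depth was not varied.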
